A study of Mus musculus with 27 samples.

Results

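Fat genes were followed array by array in mouse lungs taken 24 h after thoracic irradiation. The set was a list of 10 genes that mark white and brown fat cells (Adipoq, Plin1, Lep, Cfd, Cidea, Ucp1, Fabp4, Lipe, Pck1 and Car3). It was chosen with earlier results of these data known, and 8 of its genes were measured among 18194 genes. Plin1 and Cfd were not analysed here. Female mice of the strains C57L/J and C57BL/6J, and of CBA/J, were 10 to 12 weeks old and received 0 Gy (sham), 12.5 Gy or 15 Gy of X-rays to the whole thorax, with head, abdomen and forelimbs shielded. The 3 strains and 3 doses gave 9 groups of 3 mice, and each of the 27 Affymetrix arrays held RNA of the right upper lobe of 1 mouse, with no pooling. The labels name no transgene and no further treatment, and the sham mice of each strain were the controls.

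White fat cells store triglyceride in a single large droplet, release fatty acids from it by lipolysis, and secrete hormones such as adiponectin and leptin. Brown fat cells hold many small droplets and many mitochondria, and burn fatty acids to make heat through uncoupling protein 1. In mice, fat of both kinds lies in the chest and neck beside the lungs, the heart and the great vessels. Lung tissue itself holds Fabp4 in capillary endothelium and in macrophages, and Car3 is also abundant in skeletal muscle, so neither gene belongs to fat alone.

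The values are log2 of the intensity of the brightest probe set of each gene, and every array had been scaled by the authors to the same trimmed mean. The probe sets of different genes differ in brightness, so a level is compared below only with levels of the same gene on other arrays. With no detection calls in the files, the lowest values give no order between arrays. In RNA from a whole lobe, fewer cells of a type and less RNA per cell cannot be told apart.

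All 8 members varied more between mice of 1 group than the usual gene did, Lipe the least. The list was chosen with earlier results of these data known, so this spread is a description. The median SD within groups was 2.08 log2 units over the members and 0.30 over all 18194 genes. The median range over the 27 arrays was 6.82 log2 units for the members, against 1.45 for all genes and 1.29 for the 15856 genes with a mean of at least 5. Ucp1 had a higher SD within groups (3.97) than 100% of genes, as rounded, Pck1 (2.57) than 99.8%, Adipoq (2.21) and Cidea (2.16) than 99.7%, Fabp4 (2.00) than 99.6%, Lep (1.92) than 99.5%, and Car3 (1.63) than 99.0%. Lipe stood nearest to other genes, with an SD of 0.78, above that of 83.2% of genes. The SDs of Lep, Ucp1 and Pck1 include dim values, with 16, 11 and 3 arrays below 5, so part of their spread has no meaning. Between 68.3% (Pck1) and 93.9% (Lep) of a member's sum of squares over the arrays lay within the groups, with no share over all genes computed beside it. With groups this small, most of it lies within them even where groups do not differ, so these shares are not read as high. When the 9 groups were ordered by their mean, none of the 8 pairs of neighbours differed by more than the SD within groups, and this held for each member. Gaps between neighbours among 9 ordered means are small in most cases, so this does not show that the groups were alike.

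**Figure D1:**
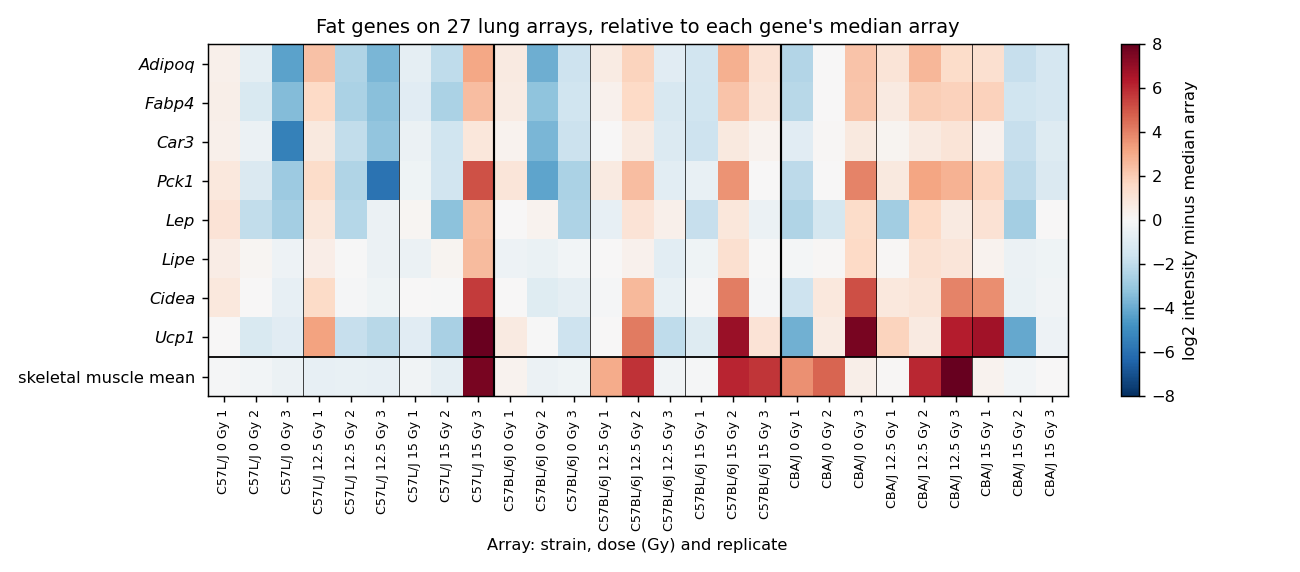
The rows are the 8 fat genes and the mean of 10 skeletal muscle genes, the columns are the 27 arrays by strain, dose (Gy) and replicate, and the colour is the log2 intensity minus that of the row's median array. The fat genes changed colour together from mouse to mouse inside a group, and Ucp1 stood over 6 log2 units above its median array on 5 arrays.

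Adipoq encodes adiponectin, a hormone that fat cells secrete. In C57L/J lungs its level was 11.23, 10.04 and 6.51 in the sham mice, 13.12, 8.42 and 7.12 at 12.5 Gy, and 10.09, 8.79 and 13.90 at 15 Gy. In C57BL/6J lungs it was 11.49, 6.87 and 9.13 in the sham mice, 11.43, 12.54 and 9.88 at 12.5 Gy, and 9.28, 13.65 and 11.96 at 15 Gy. In CBA/J lungs it was 8.44, 10.79 and 13.10 in the sham mice, 11.80, 13.43 and 12.29 at 12.5 Gy, and 12.07, 8.96 and 9.43 at 15 Gy. Levels above and below the median array occurred in 8 of the 9 groups, and each dose group overlapped the other dose groups of its strain. The group at CBA/J 12.5 Gy had the highest mean, 12.51 ± 0.84 (SD, n = 3), and was the only group with all 3 arrays above the median array (10.79). The C57BL/6J sham group had the lowest mean, 9.16 ± 2.31 (SD, n = 3). From the lowest to the highest array Adipoq covered 7.39 log2 units, a 167.8-fold range.

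Ucp1 encodes the mitochondrial carrier that lets brown fat cells turn fuel into heat. In C57L/J lungs its level was 5.84, 4.64 and 4.91 in the sham mice, 9.03, 3.999 and 3.60 at 12.5 Gy, and 4.96, 3.26 and 13.73 at 15 Gy. In C57BL/6J lungs it was 6.54, 5.81 and 4.16 in the sham mice, 5.87, 9.97 and 3.79 at 12.5 Gy, and 4.82, 12.75 and 6.93 at 15 Gy. In CBA/J lungs it was 1.98, 6.49 and 13.45 in the sham mice, 7.61, 6.54 and 12.11 at 12.5 Gy, and 12.56, 1.78 and 5.41 at 15 Gy. Ucp1 was thus above 12 on 5 arrays from 5 different groups, of which 4 were irradiated and 1 was sham, and at 9.97 or below on the others. The 3960.4-fold range of Ucp1 rests on dim values at its lower end, since 11 arrays lay below 5. With all intensities floored at 32 the range was 424.6-fold.

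Cidea, a lipid droplet protein prominent in brown fat, was high on the same 5 arrays as Ucp1 and in steps like those of Ucp1. Its level was 13.19 in replicate 3 of C57L/J 15 Gy, 12.80 in replicate 3 of the CBA/J sham group, 11.72 in replicate 2 of C57BL/6J 15 Gy, 11.61 in replicate 3 of CBA/J 12.5 Gy and 11.36 in replicate 1 of CBA/J 15 Gy. Replicate 2 of C57BL/6J 12.5 Gy followed at 10.24 and replicate 1 of C57L/J 12.5 Gy at 9.16, the arrays that came next for Ucp1 too. The median array was at 7.62 and the lowest at 5.96.

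Fabp4, a fatty acid carrier of fat cells, ran from 8.98 over a median of 12.46 to 14.93. Its lowest array was replicate 3 of the C57L/J sham group and its highest replicate 3 of C57L/J 15 Gy, which were also the lowest and the highest array of Adipoq. Pck1, the enzyme from which fat cells make the glycerol backbone of triglyceride, ran from 1.81 over 7.70 to 12.82, and 3 arrays lay below 5. Its range was 2054.0-fold as deposited and 225.3-fold with intensities floored at 32. Its highest array was again replicate 3 of C57L/J 15 Gy, and its dim arrays were not ranked.

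Car3, a carbonic anhydrase abundant in fat and muscle, ran from 8.53 over 13.94 to 14.94. Most of its range lay below the median array, and its lowest array, replicate 3 of the C57L/J sham group, differed from the median array by -5.41 log2 units. Lipe, the hormone-sensitive lipase that frees fatty acids from the droplet, had the narrowest range of the members, from 7.97 over 8.84 to 11.40, a 10.8-fold range. Lep, the leptin gene, was dim on most arrays, with 16 of 27 below 5, and ran from 1.44 over 4.75 to 7.18. Its 53.4-fold range shrank to 4.5-fold with intensities floored at 32, so the order of its lower arrays was not read.

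**Figure D2:**
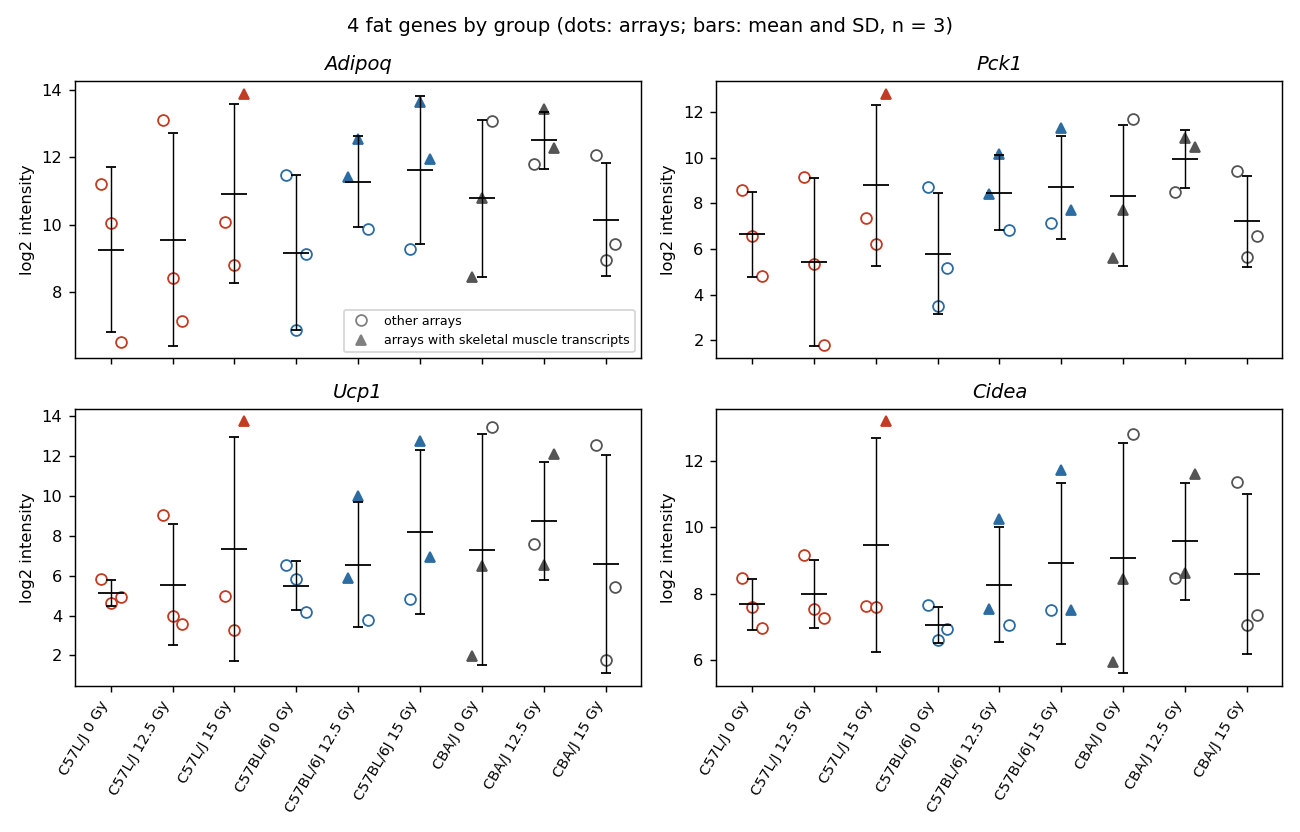
Log2 intensity of Adipoq, Pck1, Ucp1 and Cidea in the 9 groups, with 1 symbol per array, a bar at the group mean and whiskers of 1 SD (n = 3); triangles are the arrays with skeletal muscle transcripts. Single arrays high in Ucp1 and Cidea stood apart in 5 groups, and Adipoq and Pck1 varied within groups as well.

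Among the members with a promoter in the RefSeq table, start regions are shown for the hormones Adipoq and Lep, the metabolic gene Pck1 and the brown fat gene Ucp1. Fabp4 and Car3 were not in the table, that of Cidea is not shown, and both start regions of Lipe there held none of the motifs named below. Each sequence has 300 bases on the plus strand of GRCm38.p6, from 250 before the annotated start to 50 after it. The windows are chr16:23146286-23146585 for Adipoq, chr6:29059971-29060270 for Lep, chr2:173152823-173153122 for Pck1 and chr8:83290098-83290397 for Ucp1. Capitals mark matches on either strand to 4 short motifs of factors with known roles in fat or cAMP signalling, the CCAAT box (CCAAT), the C/EBP motif (TTGCNNAA), the nuclear receptor motif (AGGTCA) and the CRE core (TGACG).
Adipoq: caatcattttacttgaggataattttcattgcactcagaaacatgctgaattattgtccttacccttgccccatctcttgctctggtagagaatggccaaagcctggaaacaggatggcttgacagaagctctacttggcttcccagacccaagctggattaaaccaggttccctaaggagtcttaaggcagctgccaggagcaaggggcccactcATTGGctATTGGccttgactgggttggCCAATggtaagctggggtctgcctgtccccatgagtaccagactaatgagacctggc
Lep: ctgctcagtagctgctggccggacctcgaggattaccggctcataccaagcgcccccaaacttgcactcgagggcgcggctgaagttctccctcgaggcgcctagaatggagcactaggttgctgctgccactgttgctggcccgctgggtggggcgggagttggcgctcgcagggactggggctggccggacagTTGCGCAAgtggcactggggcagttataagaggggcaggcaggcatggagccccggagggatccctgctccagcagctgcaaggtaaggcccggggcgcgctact
Pck1: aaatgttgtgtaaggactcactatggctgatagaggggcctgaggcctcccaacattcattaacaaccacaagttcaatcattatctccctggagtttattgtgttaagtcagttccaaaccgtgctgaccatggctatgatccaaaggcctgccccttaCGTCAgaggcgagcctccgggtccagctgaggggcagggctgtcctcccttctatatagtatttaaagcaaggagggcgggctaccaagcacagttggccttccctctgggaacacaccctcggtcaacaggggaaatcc
Ucp1: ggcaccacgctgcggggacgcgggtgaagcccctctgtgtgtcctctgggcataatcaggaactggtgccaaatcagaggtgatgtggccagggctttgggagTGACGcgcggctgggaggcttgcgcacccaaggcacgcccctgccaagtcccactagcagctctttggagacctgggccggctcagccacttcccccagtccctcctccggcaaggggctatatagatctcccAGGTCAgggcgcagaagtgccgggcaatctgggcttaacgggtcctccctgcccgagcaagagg
The Adipoq window held the CCAAT box 3 times, with first bases at -34, -27 and -7 from the start, and 37.4% of 32851 mouse promoters of the same length held at least 1. The Lep window held the C/EBP motif once, at -55, which 10.8% of promoters held. Pck1 held the CRE core at -90 and Ucp1 at -147, a motif found in 20.8% of promoters, and Ucp1 also held the nuclear receptor motif at -14, found in 16.3%. No motif was common to all 4 windows. These matches are a description of letters and bear on no factor.

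The levels of the members varied together over the arrays. Over the 28 pairs of members, Pearson's r over 27 arrays ran from 0.57 to 0.99 with a median of 0.78, and that of the deviations from the group means ran from 0.57 to 0.99 with a median of 0.80. These are values of different genes on the same arrays, so they share each array's RNA and scaling and are given as a description. The closest pairs were Adipoq with Fabp4 (r = 0.99), Adipoq with Pck1 (0.95), Fabp4 with Pck1 (0.95), Cidea with Ucp1 (0.95) and Adipoq with Car3 (0.93). Ucp1 and Cidea followed Adipoq less closely by Pearson's r (0.78 and 0.77), and Car3 followed Ucp1 at 0.62. By Spearman's rank correlation, which also ranks the dim arrays, Ucp1 and Cidea each had 0.87 with Adipoq. Car3 had 0.84 with Ucp1 and Cidea 0.83 with Ucp1, so this order of closeness did not hold by rank. Lep had an r of 0.57 to 0.71 with the others.

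White and brown fat genes parted on several arrays. Replicate 2 of CBA/J 12.5 Gy had the third highest Adipoq (13.43) with Ucp1 at 6.54 and Cidea at 8.64. Replicate 3 of C57BL/6J 15 Gy likewise had Adipoq at 11.96 with Ucp1 at 6.93 and Cidea at 7.52. Replicate 1 of CBA/J 15 Gy had nearly the same Adipoq, 12.07, with Ucp1 at 12.56 and Cidea at 11.36. Adipoq was above its median array on all 5 arrays with Ucp1 above 12, and on 4 other arrays Adipoq was above 11 with Ucp1 at 6.54 or below.

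The genes outside the list with the highest r to the mean of the 8 scaled members were Tmem45b (0.963), Amy1 (0.956), Cidec (0.955), Mrap (0.952), Adig (0.951), Thrsp (0.951), Ephx2 (0.946), Cox8b (0.940), Mlxipl (0.938) and Plin4 (0.918), each over 27 arrays. Cidec and Plin4 coat lipid droplets, Mrap carries the receptor for corticotropin to the cell surface, Adig is a small protein of fat cells, Thrsp and Mlxipl act in fatty acid synthesis, and Cox8b is a subunit of cytochrome oxidase of heart, muscle and brown fat. For Ucp1 alone the closest were Thrsp (0.923), Gpd1 (0.920), which makes glycerol phosphate, and Adig (0.913), and for Cidea they were Gpd1 (0.966), Agpat2 (0.959) and Echs1 (0.939). For Adipoq they were Tmem45b (0.946), Cyp2e1 (0.941) and Mrap (0.939), for Fabp4 Tmem45b (0.964), Mrap (0.941) and Cidec (0.934), and for Pck1 Cidec (0.945), Mrap (0.941) and Amy1 (0.937). Car3 was nearest to Mrap (0.868), Acsm3 (0.864) and Tmem45b (0.853). Lipe was nearest to Pnpla2 (0.933), the lipase that acts before it in lipolysis, Trarg1 (0.933) and Dbi (0.919). Lep was nearest to Aoc3 (0.783), Dgat1 (0.770) and Snhg4 (0.759), at lower values than for any other member.

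Lists of further genes of fat biology were set beside Adipoq and Ucp1. Of 12 genes of fat cell identity that are no members, 5 had an r above 0.8 with Adipoq and 3 with Ucp1. Retn (resistin), Mrap and Cidec followed Adipoq at 0.94, 0.94 and 0.93. Aqp7, the glycerol channel, had the widest range of that list, 6.73 log2 units, but from a dim 1.86 over a median of 5.22. Of 18 brown fat and thermogenesis genes, 2 passed 0.8 with Adipoq and 7 with Ucp1, among them Cox8b (0.90 with Ucp1), Otop1 (0.86) and Elovl3 (0.85). Zic1 and Lhx8, factors of the lineage that gives rise to classical brown fat, had an r of 0.58 and 0.63 with Ucp1 over ranges of 6.48 and 4.93. Both were dim on most arrays, with medians of 4.37 and 3.94, so these ranges and r values rest largely on levels without order. Of 19 genes of lipid synthesis and uptake, 3 passed 0.8 with Adipoq and 8 with Ucp1, among them Gpd1 (0.92), Thrsp (0.92), Agpat2 (0.91) and Dgat2 (0.88). Over all 18194 genes, 30 passed 0.8 with Adipoq and 79 with Ucp1.

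Droplet and lipolysis genes and transcription factors were more mixed. Of 12 droplet and lipolysis genes, 3 passed 0.8 with Adipoq and 2 with Ucp1. Pnpla2 did with both, while Plin2, the droplet coat of most cell types, had 0.31 and 0.45, and Hilpda, a droplet protein that inhibits lipolysis, had -0.44 and -0.41. Of 15 transcription factors of fat cells none passed 0.8 with Adipoq and 2 did with Ucp1, Ebf2 (0.83) and Ppara (0.81). Pparg, the regulator of fat cell differentiation, had 0.79 with Adipoq and 0.80 with Ucp1 over a range of 3.13, and Cebpa 0.15 and 0.19 over a range of 0.88. Cd36, a fatty acid carrier that is bright in lung, had -0.17 and -0.40 over a range of 1.04.

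**Figure D3:**
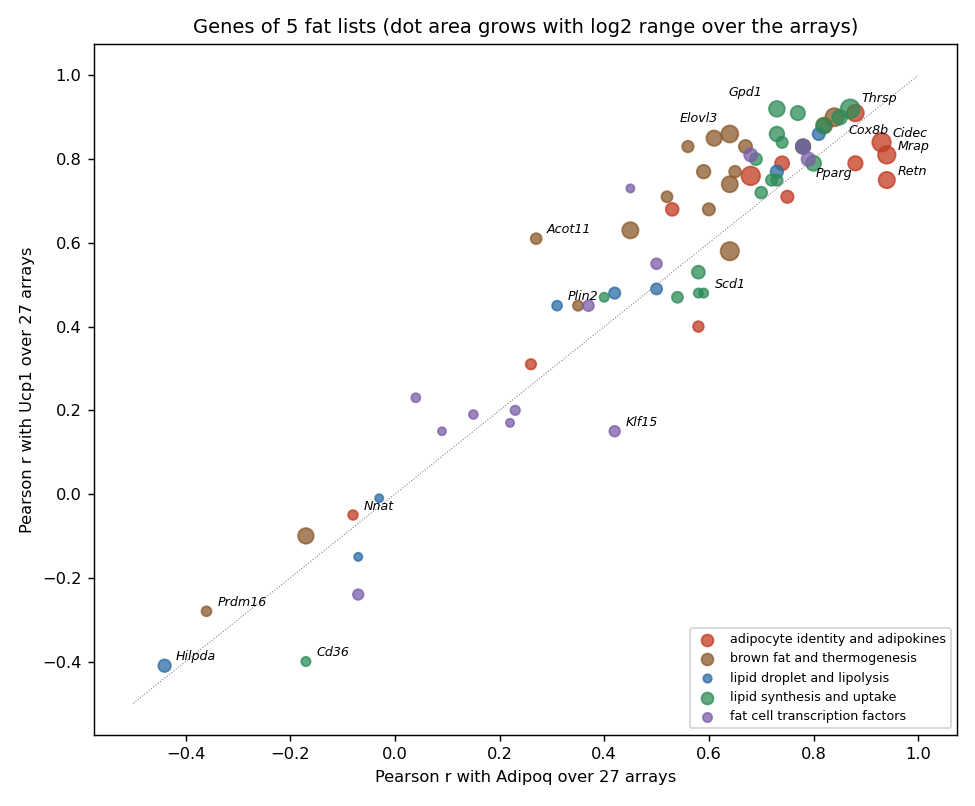
Each dot is a gene of 5 fat lists other than the members, placed by its Pearson r with Adipoq (x axis) and with Ucp1 (y axis) over 27 arrays, with an area that grows with its log2 range and a dotted line where both are equal. Many genes with wide ranges gathered at the upper right, but the dim Bmp8b, over a range of 4.45, had -0.17 with Adipoq and -0.1 with Ucp1. Brown fat genes such as Elovl3 lay nearer to Ucp1 than to Adipoq, while Zic1 did not (0.58 with Ucp1, 0.64 with Adipoq). Hilpda, Prdm16 and Cd36 also lay below 0 on both axes.

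Transcripts of other tissues from beside the lung were on some of the same arrays. All 10 genes of a skeletal muscle list were measured, and their mean ran from 5.83 over a median of 6.53 to 14.83, and lay more than 2 log2 units above its median on 9 arrays, 7 of them irradiated and 2 sham. Adipoq was 8.44 to 13.90 (median 12.29) on these 9 arrays and 6.51 to 13.12 (median 9.65) on the other 18, and Ucp1 was 1.98 to 13.73 (median 6.93) and 1.78 to 13.45 (median 4.94). The muscle mean had an r of 0.60 with Adipoq and 0.53 with Ucp1. Of the 5 arrays with Ucp1 above 12, 3 had muscle transcripts and 2 did not. These 2 were replicate 3 of the CBA/J sham group and replicate 1 of CBA/J 15 Gy, with muscle means of 6.98 and 6.79. Replicate 1 of the CBA/J sham group went the other way, with a muscle mean of 10.16 and Ucp1 at 1.98.

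Markers of neck and chest organs stood high on some arrays that were high in Ucp1. Tg, the thyroid's thyroglobulin, was at 15.07 in replicate 3 of CBA/J 12.5 Gy, 14.30 in replicate 3 of C57L/J 15 Gy and 13.46 in replicate 2 of C57BL/6J 15 Gy, and these arrays were 3 of the 5 with Ucp1 above 12. The mean of 3 lymph node genes was 8.94, 8.67 and 8.45 in replicate 3 of C57L/J 15 Gy, replicate 3 of the CBA/J sham group and replicate 2 of C57BL/6J 15 Gy, again among those 5, against a median array of 5.18. Replicate 1 of CBA/J 15 Gy, with Ucp1 at 12.56, had Tg at 4.89 and a lymph node mean of 4.58. The mean of 7 squamous epithelium genes was 11.29 in replicate 2 of CBA/J 12.5 Gy, where Ucp1 was 6.54. The r with Ucp1 was 0.37 for that mean, 0.53 for 4 thymus genes and 0.21 for 7 cardiac muscle genes. The mean of 6 endothelial genes ran from 10.89 to 12.33 and had an r of -0.64 with Adipoq, Fabp4 and Ucp1. The mean of 4 alveolar macrophage genes had an r of -0.07 with Adipoq and -0.16 with Fabp4. The lung epithelium mean stayed between 14.21 and 14.73, so these epithelial transcripts were bright on every array. Other lung cell lists varied more. The alveolar macrophage mean was lowest, 7.16, in replicate 3 of CBA/J 12.5 Gy, against a median array of 9.99. The endothelial mean was lowest, 10.89, in replicate 3 of C57L/J 15 Gy. The part of these tissues in the fat gene levels was not tested.

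**Figure D4:**
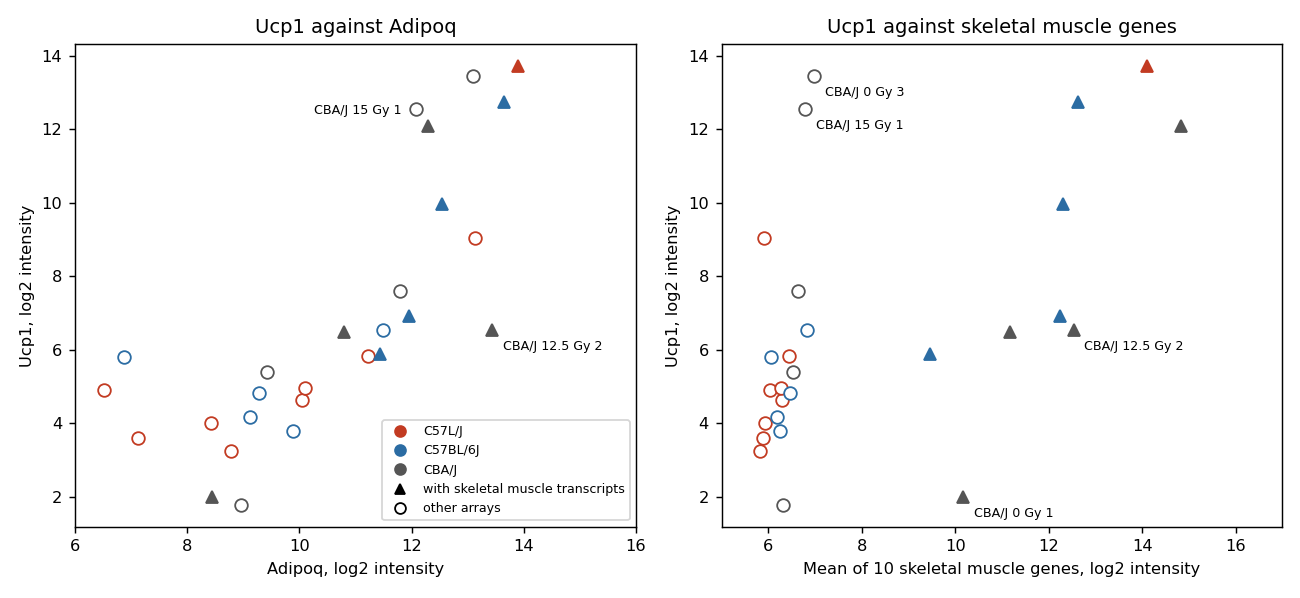
Log2 intensity of Ucp1 on 27 arrays against that of Adipoq (left) and against the mean of 10 skeletal muscle genes (right), coloured by strain, with triangles for the 9 arrays with muscle transcripts. Ucp1 passed 12 only where Adipoq was also above 12, and 2 of those 5 arrays had a muscle mean of 7 or less.

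The design asks which genes changed with dose in each strain, and no member passed the test in any dose comparison. The 9 comparisons were fitted with limma over all 18194 genes, with calls at a Benjamini-Hochberg adjusted p under 0.05, and 0 of 8 members were called in each. In the same fits, limma called 0.517% of all genes for C57L/J 12.5 against 0 Gy, 0% for 15 against 0 Gy and 0% for 15 against 12.5 Gy. For C57BL/6J the shares in the same order were 0.484%, 0.066% and 0%, and for CBA/J 0.033%, 1.01% and 0%. At an unadjusted p under 0.05, 0 members passed in 8 of the comparisons, and 3 passed in CBA/J 15 against 12.5 Gy. The shares of all genes that passed it were 13%, 7.44% and 3.15% for C57L/J in the same order, 10.8%, 12.5% and 3.17% for C57BL/6J, and 10.6%, 15.6% and 6.87% for CBA/J. The random variance t test also called 0 members in each comparison. In none of the 9 comparisons did the values of a member separate the groups without overlap. Of all genes, 21.1%, 16.6% and 8.04% did so for C57L/J, 18.1%, 20.8% and 6.93% for C57BL/6J, and 18.8%, 24.5% and 15.1% for CBA/J.

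The differences between dose groups were wide in both directions. In C57BL/6J, all 8 members were higher at 12.5 than at 0 Gy, by 0.19 to 2.68 log2 units (median 1.38), and higher at 15 than at 0 Gy, by 0.27 to 2.92 (median 1.90). All 10 skeletal muscle genes were higher in the same comparisons, by medians of 2.72 and 3.82, and without the arrays with muscle transcripts, which left 1 irradiated array at each dose, the medians of the members were 0.35 and 0.02. The lowest adjusted p values, 0.570 and 0.511 by limma, missed the threshold. For Pck1 at 15 against 0 Gy the 95% interval of the difference of 2.92 ran from -1.20 to 7.03. At 15 against 12.5 Gy in C57BL/6J, 6 members were higher and 2 lower, between -0.75 and 1.62. All 10 muscle genes were higher there (median 1.09). In C57L/J the members were 0.67 to 2.19 higher at 15 than at 0 Gy (median 1.56), with a lowest adjusted p of 0.767 by limma. The 10 muscle genes were all higher too (median 2.49), and without replicate 3 of 15 Gy, the one array with muscle transcripts there, the members' median turned to -0.15. At 12.5 against 0 Gy, 5 were higher and 3 lower, between -1.21 and 0.60, and at 15 against 12.5 Gy all 8 were higher, by 0.36 to 3.35 (median 1.24, and -0.21 without that array). These comparisons share their sham or 12.5 Gy arrays, so their directions do not count as separate evidence.

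In CBA/J lungs the directions of the members differed between the 2 doses, with no member called. All 8 members were higher at 12.5 than at 0 Gy, by 0.27 to 1.73 (median 1.04), while at 15 against 0 Gy 7 were lower and 1 higher, between -1.12 and 0.26. The 10 skeletal muscle genes were all higher at 12.5 than at 0 Gy (median 1.88) and all lower at 15 than at 0 Gy (median -2.84). Between 15 and 12.5 Gy all 8 members were lower at 15 Gy, by a median of -1.68. Adipoq differed by -2.36 ± 0.91 (SE, 95% interval -4.62 to -0.09), Car3 by -1.49 ± 0.58 (-2.93 to -0.06) and Lipe by -0.95 ± 0.36 (-1.85 to -0.04). Their unadjusted limma p values were 0.0438, 0.0441 and 0.0429, and their adjusted p was 0.694 each. All 10 skeletal muscle genes were lower at 15 Gy in the same comparison (median -4.76), and 2 of the 3 arrays at 12.5 Gy and none at 15 Gy had muscle transcripts. Without these, which left 1 array at 12.5 Gy, the differences were -1.65 for Adipoq, -1.05 for Car3 and -0.29 for Lipe, with unadjusted limma p values of 0.336, 0.352 and 0.508.

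The irradiated lungs of all strains were then compared with the sham lungs, with strain as a term. All 8 members were higher in the 18 irradiated arrays by their fitted means, by 0.17 to 1.28 log2 units with a median of 0.91, against a median of -0.01 over all genes and of 1.38 over the 10 skeletal muscle genes, all of them higher. Limma called 0 of 8, where 14.9% of all genes were called, and 0 passed at an unadjusted p under 0.05, where 27.1% of all genes did. Adipoq was 6.51 to 13.10 (median 10.04) in the 9 sham arrays and 7.12 to 13.90 (median 11.62) in the 18 irradiated arrays, and differed by 1.28 ± 0.83 (SE, 95% interval -0.44 to 2.99, limma adjusted p = 0.343). Ucp1 was 1.98 to 13.45 (median 5.81) and 1.78 to 13.73 (median 6.21), and differed by 1.17 ± 1.42 (interval -1.76 to 4.10, limma adjusted p = 0.652). The remaining differences were 1.17 for Pck1, 0.96 for Fabp4, 0.86 for Cidea, 0.78 for Car3, 0.62 for Lep and 0.17 for Lipe.

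That direction depended on which arrays were kept. Without the 9 arrays with muscle transcripts, which left 7 sham and 11 irradiated arrays, the median difference of the members was -0.53 in place of 0.91, and 7 of 8 turned negative, with Adipoq at -0.27 and Ucp1 at -1.81. Car3 stayed at 0.08. In that fit the sham lungs of CBA/J were represented by 1 array, replicate 3, the sham array with Ucp1 at 13.45. Without that array alone, and with all the others kept, the median was 1.37. No member was called in either fit.

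**Figure D5:**
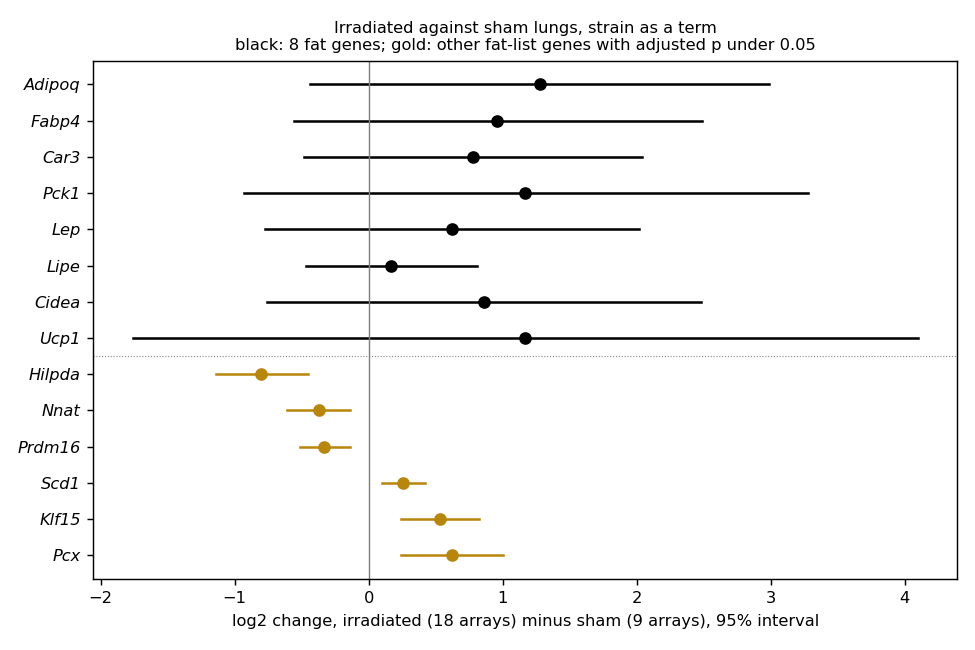
Dots are the limma log2 differences of irradiated (18 arrays) minus sham lungs (9 arrays) with strain as a term, and bars their 95% intervals, in black for the 8 members and in gold for other fat-list genes with an adjusted p under 0.05. All 8 black intervals crossed 0, that of Ucp1 from -1.76 to 4.10. The gold genes were picked by their adjusted p in this same fit, so their intervals exclude 0 by choice.

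Some other genes of the fat lists were called where the members were not. Hilpda fell in irradiated lungs by 0.80 ± 0.17 log2 units (SE, limma adjusted p = 0.00171). It ran from 10.16 to 11.31 in the sham arrays and from 8.72 to 10.84 in the irradiated ones. In C57BL/6J the 3 sham arrays ran from 10.20 to 10.49 and the 6 irradiated arrays from 8.72 to 9.63. In C57L/J they ran from 10.94 to 11.31 and from 9.29 to 10.66. In CBA/J they ran from 10.16 to 10.88 and from 9.48 to 10.84, with means of 10.49 and 10.26. The fall was 0.71 (adjusted p = 0.0171) without the arrays with muscle transcripts. Klf15, a factor of fat and muscle metabolism that glucocorticoids induce, rose by 0.53 (adjusted p = 0.0104), Pcx, pyruvate carboxylase, by 0.62 (0.0240), and Scd1, the main fatty acid desaturase, by 0.26 (0.0243). Prdm16, a regulator of brown fat identity, fell by 0.33 (0.0132) and Nnat, neuronatin, fell by 0.37 (0.0293), all by limma. Without the arrays with muscle transcripts, which left 18 arrays, these 5 missed the threshold, with Klf15 at 0.39 (adjusted p = 0.233), Pcx at 0.27 (0.419), Scd1 at 0.22 (0.231), Prdm16 at -0.20 (0.205) and Nnat at -0.40 (0.0564). Nnat also missed it with the replicate block (-0.37, adjusted p = 0.0604) and with median-centring (-0.35, 0.0549). Pcx and Prdm16 missed it with the most variable probe set (0.18 and -0.23). Leaving out 1 of certain sham arrays ended the call of Nnat (C57L/J replicate 1, CBA/J replicates 1 and 3, C57BL/6J replicate 2), of Pcx (C57L/J replicate 3, CBA/J replicate 1, C57BL/6J replicate 2) and of Scd1 (CBA/J replicate 1, C57BL/6J replicates 2 and 3), at adjusted p values of 0.0504 to 0.0720. In counts by list, 1 of 16 measured identity genes fell, 1 of 20 brown fat genes fell, 1 of 14 droplet genes fell, 2 of 20 synthesis genes rose, and of 15 transcription factors 1 rose and 1, Prdm16 again, fell. Of all genes 14.9% were called, and each list's share was lower than that. The list medians were 0.46, 0.20, 0.10, 0.28 and 0.05 in that order, and the members in each list are included.

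No member was called between strains either. With dose as a term, limma called 0 of 8 members in C57L/J against C57BL/6J (5.35% of all genes called), CBA/J against C57BL/6J (13.3%) and CBA/J against C57L/J (11.2%). At an unadjusted p under 0.05, 0 members passed in each, against 19%, 26% and 23.1% of all genes. Between CBA/J and C57L/J all 8 were higher in CBA/J, by 0.07 (Lipe) to 1.55 (Pck1 and Ucp1), with a lowest adjusted p of 0.350. The 10 skeletal muscle genes were also all higher in CBA/J there (median 2.38). Tests of whether irradiation acted differently between strains called 0 members in the 3 pairs of strains, with 0% of all genes called in each and 0 members at an unadjusted p under 0.05, against 4.55% (C57L/J and C57BL/6J), 5.99% (CBA/J and C57BL/6J) and 4.64% (CBA/J and C57L/J) of all genes. The lowest unadjusted limma p of a member there was 0.301, and for Pck1 in CBA/J against C57BL/6J the difference of effects was -2.55.

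Some genes of the fat lists were called between strains. Of 14 droplet genes, 3 were called in CBA/J against C57BL/6J, 1 in C57L/J against C57BL/6J and 1 in CBA/J against C57L/J, where 13.3%, 5.35% and 11.2% of all genes were. The lists of 16 identity genes, 20 brown fat genes, 20 synthesis genes and 15 transcription factors had 1, 0, 1 and 2 called in CBA/J against C57BL/6J. In C57L/J against C57BL/6J each of them had 0, and in CBA/J against C57L/J they had 1, 1, 0 and 1. Plin2 was higher in CBA/J than in C57BL/6J by 0.67 ± 0.13 (SE, limma adjusted p = 0.000754) and than in C57L/J by 0.51 (0.00980). It ran from 11.60 to 12.21 in the 9 CBA/J arrays, from 10.91 to 11.54 in the 9 C57BL/6J arrays and from 10.99 to 12.23 in the 9 C57L/J arrays. Hilpda was higher in C57L/J (by 0.99, adjusted p = 0.00214) and in CBA/J (0.82, 0.00510) than in C57BL/6J. Mgll, the lipase that finishes lipolysis, was 0.66 higher in CBA/J than in C57BL/6J (0.00941), and Rbp4, the retinol carrier, 0.42 higher (0.0181). Lpin1 (-0.64), Ebf1 (-0.48) and Cebpa (-0.33) were lower in CBA/J than in C57BL/6J, with adjusted limma p values of 0.00745, 0.0176 and 0.0217. Without the arrays with muscle transcripts, Hilpda in CBA/J was 0.83 higher (adjusted p = 0.0510), and Ebf1 (-0.40, 0.144), Lpin1 (-0.43, 0.248) and Cebpa (-0.23, 0.395) also missed the threshold. The differences of Lpin1 and Ebf1 depended on the probe set, at -0.35 and -0.20 with the mean of probe sets and -0.06 and -0.52 with the most variable one, with adjusted p values of 0.223, 0.356, 0.900 and 0.485. Mgll missed the threshold with the most variable probe set (adjusted p = 0.0601).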

How the data were processed

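Lung RNA had been hybridised by the authors in a single batch to 27 Affymetrix mouse arrays. They deposited a linear intensity for each probe set, with Affymetrix Expression Console 1.1 as the software per the labels. How probe intensities were summarised is not stated in what was used here. The 2% trimmed mean was 500 on every array, and the median intensity ran from 127.6 to 167. The study's methods name quartile normalization, which the values do not show. No array was a copy of another (highest pairwise correlation 0.959), and 0 value columns belonged to no sample. The number of arrays limits the precision.

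From the deposited intensities, log2 was taken after a floor of 1 (37 to 111 values per array). Of 45101 probe sets, 34958 had 1 gene symbol in the platform table, 932 several and 9211 none, and 34754 matched a current symbol. Each of 18194 genes was represented by its brightest probe set by mean log2. Fabp4 and Car3 had 4 probe sets each, Pck1 3, Lipe 2 and the others 1. The others of Fabp4 and Car3 correlated at 0.75 to 0.97 with the one used, those of Pck1 at 0.81 and 0.03, and that of Lipe at 0.29.

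Groups came from the labels. Limma 3.58.1 (lmFit, eBayes; R 4.3.3) was fitted to all genes with Benjamini-Hochberg adjustment, each dose pair on its own arrays, and irradiation, strain and their interaction on 27 arrays. The fits were tested on simulated data. Named were all members, the 10 genes most like their mean and the 3 most like each, and in each fat list up to 4 genes called and up to 4 of widest range; other genes were named after their values were seen. Members and lists were chosen with earlier results of these data known. Alternatives were the unadjusted p under 0.01 of the study, its random variance t test, 1 fit of 9 groups, an intensity trend with a robust prior, median-centring, quantile normalization, a floor of 32, the mean or the most variable probe set, a filter at a mean log2 of 5, the replicate block, each array left out, the arrays with skeletal muscle transcripts left out, and the muscle mean as a covariate. Promoters are RefSeq's. Figures were drawn with matplotlib 3.10.9 in Python 3.11.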

Additional observations from a re-analysis of the deposited data

How the results depend on the processing

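The count of members called stayed 0 in all 16 comparisons under the alternatives that could be fitted, each array left out included, and at the study's unadjusted p under 0.01. With the replicate block it was 0 as well. Samples with the same number deviated from their group means with correlations of -0.073 to 0.249, and in no comparison were all 3 above 0.1, so the numbers gave no pairing.

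Without the arrays with muscle transcripts the irradiated minus sham difference turned to -0.27 for Adipoq, -0.42 for Lep, -0.74 for Cidea, -1.81 for Ucp1, -0.56 for Fabp4, -0.50 for Lipe and -0.81 for Pck1, and Lipe was at -0.09 with the muscle mean as a covariate. That fit kept fewer arrays, among them 1 sham CBA/J array. Leaving out 1 array moved the median of the members in that comparison between 0.61 (without CBA/J 0 Gy replicate 1) and 1.37 (without CBA/J 0 Gy replicate 3). The median difference became 2.51 for C57L/J 12.5 against 0 Gy and -0.26 for C57BL/6J 15 against 0 Gy with the covariate, and -2.77 for CBA/J 15 against 0 Gy without the muscle arrays, a comparison of 3 arrays with the single sham array left, replicate 3. Of 128 differences (8 members, 16 comparisons), the direction changed in 49 with the covariate, in 36 of 112 without the muscle arrays, in 9 with the mean of probe sets, in 6 with the most variable probe set, in 6 with a floor of 32, in 1 with median-centring and in 0 with the other alternatives, and in 146 of 1944 when 1 array was left out. The cause was not tested.

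Prdm16 was 0.35 higher in CBA/J than in C57L/J (adjusted p = 0.0300) with the brightest probe set, but -0.68 with the mean of its probe sets and -2.50 with the most variable one, so no direction was read. C57BL/6J 15 against 12.5 Gy and CBA/J 12.5 against 0 Gy could not be fitted without the muscle arrays, which left 1 array a group. Lep has no value under the filter on low values, and the dim arrays of Lep, Ucp1 and Pck1 have no order, since no detection calls were used.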
